A study of Drosophila melanogaster with 5 samples.

Results

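One annotated cluster of the Malpighian tubules (MTs) of adult Drosophila melanogaster is described here, the one that the authors named lower tubule principal cells (Pvr-act). Its nuclei were taken by that name in the deposited annotation, which gave 1860 of 21371 nuclei, and the cluster is called the Pvr-act lower tubule cluster below. The libraries hold single nuclei from MTs of adult females reared at 18 °C and shifted to 29 °C to release the temperature-sensitive repressor GAL80. Each was made from 90 pairs of MTs, of which 10000 nuclei were sorted for droplet sequencing from the 3′ end of transcripts. The labels give 5 days at 29 °C in one field and 8 days in another. There was 1 library per genotype, so nothing measures the spread between flies or preparations, no test between genotypes was possible, and all differences below compare these libraries.

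In PCts>Pvr Activation, CG31272-GAL4 with tub-GAL80TS drove UAS-Pvr act, an activated form of the receptor Pvr, in principal cells (PCs). In EGT>Yki, esg-GAL4 with tub-GAL80TS drove UAS-yki3SA, an activated form of the growth regulator Yorkie, together with UAS-GFP, in progenitor cells of the gut and in renal stem cells, which gives flies with gut tumors. PCs were therefore the cells carrying the transgene in PCts>Pvr Activation, whereas in EGT>Yki the transgene was aimed at other cells. A further library, labelled PCts>Pvr RNAi, came from flies in which the PC driver acted on UAS-Pvr RNAi. The controls were EGT>w1118 (esg-GAL4, tub-GAL80TS with UAS-GFP) and PCts>W1118 (CG31272-GAL4, tub-GAL80TS with no effector).

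PCs are the large transporting cells of the MT. A proton pump, the V-ATPase, drives the secretion of urine together with the Na+,K+-ATPase, and the lower tubule is known for taking water and ions back from it. The homeobox transcription factor cut (ct) marks PCs. Pvr is the fly receptor tyrosine kinase related to the PDGF and VEGF receptors. Its ligands are Pvf1, Pvf2 and Pvf3, and it signals through Ras to ERK and through JNK to the AP-1 factors kayak (kay, Fos) and Jra (Jun).

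The cluster was nearly confined to 2 of the 5 libraries. It held 1681 of 9367 nuclei of PCts>Pvr Activation, a share of 17.9% (17.2 to 18.7), and 170 of 3640 nuclei of EGT>Yki, a share of 4.67% (4.01 to 5.41). Against these stood 1 of 1969 nuclei of the library labelled PCts>Pvr RNAi (0.0508%, 0.00129 to 0.283), 5 of 3380 nuclei of EGT>w1118 (0.148%, 0.0480 to 0.345) and 3 of 3015 nuclei of PCts>W1118 (0.0995%, 0.0205 to 0.291). The brackets are exact binomial (Clopper-Pearson) 95% intervals, which, like all intervals below, cover counting error only. PCts>Pvr Activation supplied 90.4% of the nuclei of the cluster and 85.8% of its UMIs (unique molecular identifiers, 1 per captured RNA molecule), and EGT>Yki supplied 9.14% of the nuclei and 13.8% of the UMIs.

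Lower tubule PCs without the Pvr-act label had the opposite distribution. None of the 9367 nuclei of PCts>Pvr Activation bore that name, which allows a share of up to 0.0320% by the limit of 3 counts, and 135 nuclei of EGT>Yki did (3.71%, 3.12 to 4.37). Under the label PCts>Pvr RNAi the share was 8.08% (159 nuclei), and it was 12.6% (427 nuclei) in EGT>w1118 and 9.88% (298 nuclei) in PCts>W1118. Clusters named after Pvr-act took up 96.0% of all nuclei of PCts>Pvr Activation and 27.6% of those of EGT>Yki, and the Pvr-act lower tubule cluster was a similar part of them, 18.7% in PCts>Pvr Activation and 16.9% in EGT>Yki. The authors clustered all libraries together on gene expression, so where a nucleus was placed and what it expressed are not independent.

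**Figure D1:**
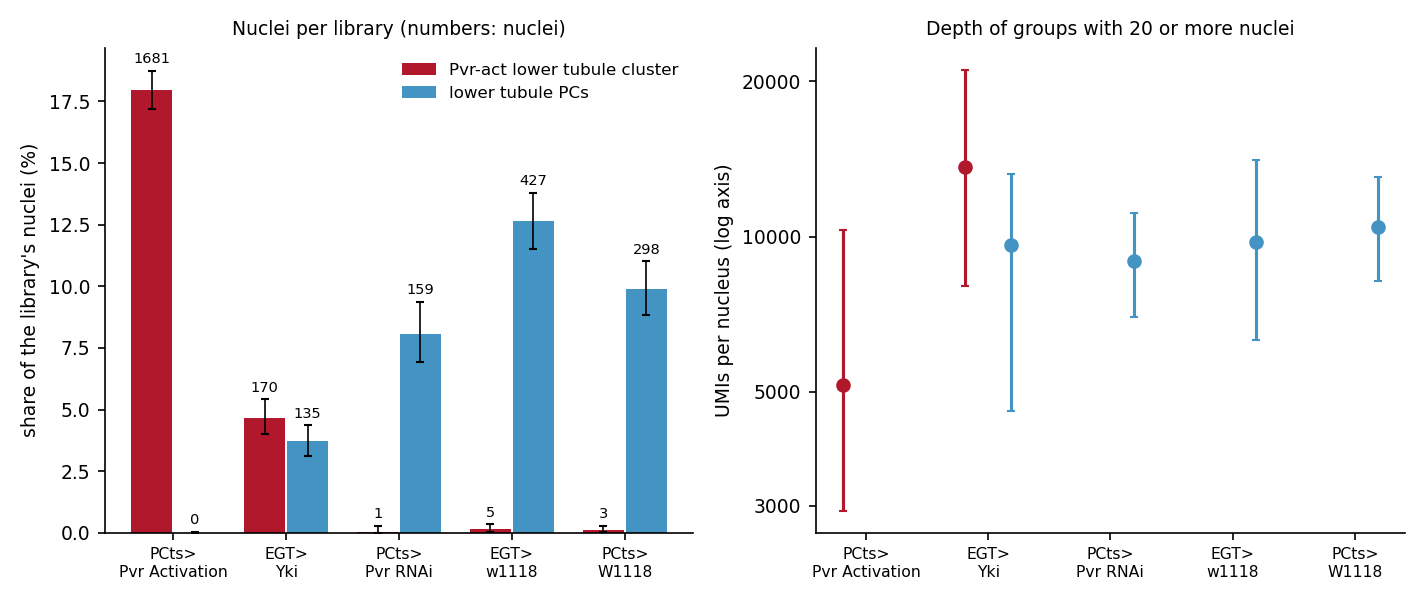
Left, share of each library's nuclei (%) in the Pvr-act lower tubule cluster (red) and in lower tubule PCs (blue), with exact binomial 95% intervals and the number of nuclei above each bar. Right, median UMIs per nucleus on a log axis with the lower and upper quartiles, for groups with at least 20 nuclei. The cluster takes 17.9% of PCts>Pvr Activation and 4.67% of EGT>Yki, and its nuclei are shallower in PCts>Pvr Activation (median 5151 UMIs) than in EGT>Yki (median 13627.5).

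Depth differed between the groups compared. Cluster nuclei had a median of 5151 UMIs and 1647 genes in PCts>Pvr Activation and 13627.5 UMIs and 2952.5 genes in EGT>Yki. Lower tubule PCs had medians of 9610 UMIs in EGT>Yki, 8949 under the label PCts>Pvr RNAi, 9773 in EGT>w1118 and 10432 in PCts>W1118. When each nucleus was thinned to 1000 UMIs, the median number of genes was 582 in cluster nuclei of PCts>Pvr Activation, 641 in those of EGT>Yki and 623 to 631 in lower tubule PCs of EGT>Yki and both controls. The shallowest nucleus had 500 UMIs in PCts>Pvr Activation and 150 to 223 in the other libraries, so the lower bound on depth was not the same for the shares above. Over whole libraries, depth ranged between 10018765 and 39154127 UMIs, and 53 barcodes occurred in more than 1 library, among them those of 5 cluster nuclei.

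Levels are given as mean UMIs per 10,000 UMIs of a nucleus. Fold changes are log2 ratios of these means after a pseudocount of 1, which understates the change of low genes. A gene was compared where at least 10% of the nuclei of either group had a UMI of it, and "past the fold" means a log2 fold change of at least 1 in size. The control libraries gave a yardstick for library differences, although they also differ in driver. Between lower tubule PCs of EGT>w1118 and of PCts>W1118, the median size of the log2 fold change was 0.08, and 0.273% of 5501 genes were past the fold higher and 0.4% lower. Reads of Pvr come from the endogenous gene and the transgene alike, and RNA set free from broken cells reaches every droplet. For that reason levels in tracheal nuclei of the same library, which should lack PC genes, are given beside the genes where it matters.

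The first check was the receptor itself. Pvr (FBgn0032006) had 37.4 UMIs per 10,000 in cluster nuclei of PCts>Pvr Activation, against 6.22 in lower tubule PCs of PCts>W1118, a log2 fold change of 2.41 (2.43 from pooled counts, 2.37 to 2.5). It had 4.5 UMIs per 10,000 in cluster nuclei of EGT>Yki, against 6.5 in lower tubule PCs of EGT>Yki and 7.22 in those of EGT>w1118. Thus Pvr was high in the cluster only in the library that carries the Pvr transgene, and cluster nuclei of EGT>Yki had no more Pvr than control PCs (log2 fold change -0.58). Lower tubule PCs of the library labelled PCts>Pvr RNAi had 7.17 UMIs per 10,000 of Pvr, not below the 6.22 of PCts>W1118, and differed little from them over all genes (0.128% of 5480 past the fold higher and 0.237% lower). Tracheal nuclei of PCts>Pvr Activation had 18.9 UMIs per 10,000 of Pvr, and the part of free RNA in the levels of that library was not tested.

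The name of the cluster was then checked against lower tubule genes. Levels of ct (FBgn0004198) were 40.4 UMIs per 10,000 in cluster nuclei of PCts>Pvr Activation and 45.6 in those of EGT>Yki, against 57.2 in lower tubule PCs of EGT>Yki, 60.9 in those of EGT>w1118 and 68.7 in those of PCts>W1118. Tracheal nuclei had 25.5 UMIs per 10,000 of ct in PCts>Pvr Activation and 4.61 in EGT>Yki. In the shallowest bin of cluster nuclei of PCts>Pvr Activation (median 1916 UMIs, with 4 bins of depth), ct was at 21.7, below the tracheal level, and in the deepest at 53.9. Alp4, an alkaline phosphatase of the lower tubule, had 0.0295 UMIs per 10,000 in cluster nuclei of PCts>Pvr Activation and 7.90 in those of EGT>Yki, against 15.8 in lower tubule PCs of EGT>Yki, 26.6 in those of EGT>w1118 and 34.8 in those of PCts>W1118. Tracheal nuclei of EGT>Yki had 15.7 UMIs per 10,000 of Alp4, above the level of the much deeper cluster nuclei of that library, although in raw UMIs per nucleus they had 1.80, against 11.3 in the cluster. Tracheal nuclei of EGT>w1118 and PCts>W1118 had 31.9 and 33.0 UMIs per 10,000 of Alp4 as well, and the part of free RNA in these levels was not tested.

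A wider set gave the same picture. In EGT>w1118, 61 genes were past the fold higher in lower tubule PCs than in both main segment PCs and initial and transitional PCs and were seen in at least 50% of lower tubule nuclei. Cluster nuclei of PCts>Pvr Activation had 42 of these 61 genes past the fold lower than lower tubule PCs of PCts>W1118 and 1 higher, with a median log2 fold change of -1.42, where 6.92% of all genes compared were lower. Cluster nuclei of EGT>Yki had 27 lower and 3 higher, with a median of -0.91, where 2.79% of all genes compared were lower against the same control. Lower tubule PCs of EGT>Yki had 8 lower and 3 higher, and those of the library labelled PCts>Pvr RNAi had 0 in either direction. Picot, a member of a phosphate transporter family, had 5.41 UMIs per 10,000 in cluster nuclei of PCts>Pvr Activation and 11.0 in those of EGT>Yki, against 30.5 in lower tubule PCs of EGT>Yki, 65.3 in those of EGT>w1118 and 55.7 in those of PCts>W1118. The set was chosen after the data had been seen. Its genes were picked as high in lower tubule PCs, with a median level of 4.01 in those of PCts>W1118. With the pseudocount of 1, a gene below 1 UMI per 10,000 in the reference cannot be past the fold lower. The shares over all genes include such genes, so they are not a like yardstick for the 61. In the other Pvr-act clusters of PCts>Pvr Activation, 44 of the 61 genes were past the fold lower, so low lower tubule genes were not particular to this cluster.

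Whole profiles were compared by rank correlation across 7267 genes with the cell types of PCts>W1118, a description in which genes are not independent replicates. Cluster nuclei of EGT>Yki were about as like upper ureter PCs (0.824) as lower tubule PCs (0.821). Cluster nuclei of PCts>Pvr Activation were less like any control type. Their values were 0.659 with upper ureter PCs, 0.648 with initial and transitional PCs, 0.628 with stellate cells and 0.626 with lower tubule PCs. Lower tubule PCs of EGT>Yki, for comparison, were most like lower tubule PCs of PCts>W1118 (0.913). The other Pvr-act clusters of PCts>Pvr Activation were also set against lower tubule PCs of PCts>W1118. Lower segment PCs (Pvr-act) had 0.672 and renal stem cells 2 (Pvr-act) 0.641. Lower segment PCs 2 (Pvr-act) had 0.623 and renal stem cells (Pvr-act) 0.601. With the cell types of EGT>w1118 in place of PCts>W1118, main segment PCs 2 (36 nuclei) led for the cluster in PCts>Pvr Activation (0.667). For the cluster in EGT>Yki, lower tubule PCs led (0.818). Lower segment PCs (Pvr-act) of PCts>Pvr Activation had 0.714 with the same main segment PCs 2. The data therefore did not single out the lower tubule for the cluster nuclei of PCts>Pvr Activation, and the name is kept as the label the authors gave.

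**Figure D2:**
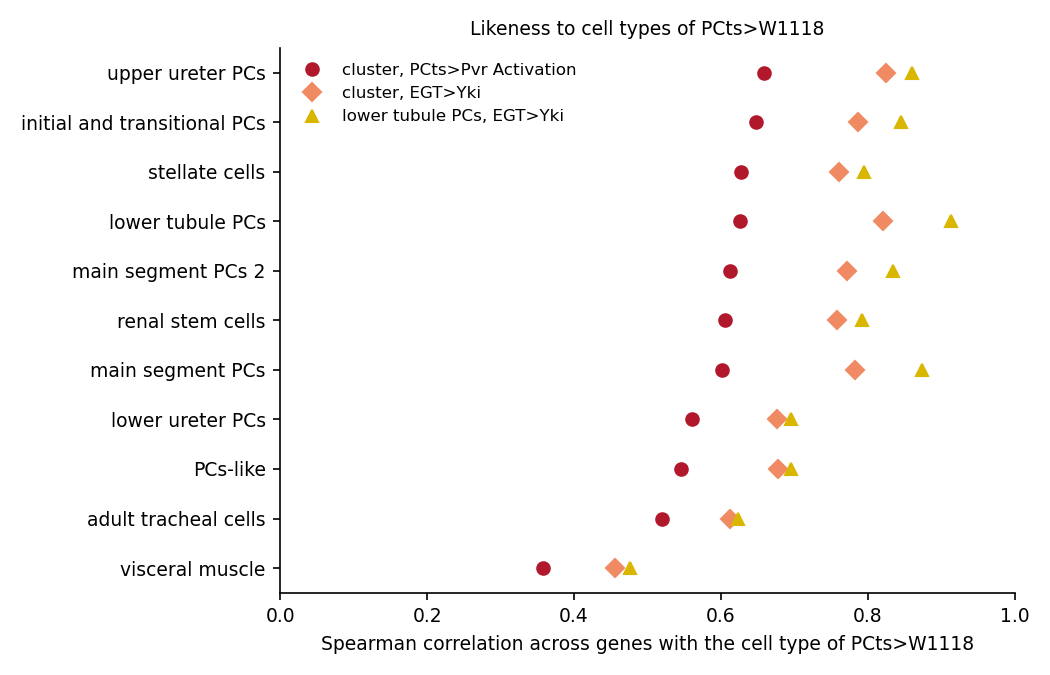
Spearman correlation across 7267 genes of mean levels between 3 groups of nuclei (cluster of PCts>Pvr Activation, circles; cluster of EGT>Yki, diamonds; lower tubule PCs of EGT>Yki, triangles) and each cell type of PCts>W1118, 1 row per type. The cluster of PCts>Pvr Activation has 0.659 with upper ureter PCs and 0.626 with lower tubule PCs, whereas lower tubule PCs of EGT>Yki have their highest value, 0.913, with lower tubule PCs.

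Markers of visceral muscle, trachea, fat body and enterocytes were low in the cluster. Of the stellate cell markers tsh, tio, SecCl, Drip and Lkr, only SecCl is reported here. SecCl was higher in EGT>Yki and is given below with the transporters. Summed over the 8 visceral muscle markers, all of which had UMIs, cluster nuclei of PCts>Pvr Activation had 5.5 UMIs per 10,000, against 93.5 to 468 in visceral muscle nuclei of the libraries that hold them. The sum of the 6 tracheal markers was 0.740 in cluster nuclei of PCts>Pvr Activation and 0.101 in those of EGT>Yki, against 7.40 to 14.5 in tracheal nuclei of 4 libraries. Fat body and enterocyte markers summed to at most 0.284 UMIs per 10,000 in the cluster of either library. The 9 cluster nuclei of the other libraries were too few to compare.

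To see how the cluster differed from control lower tubule PCs, nuclei of PCts>Pvr Activation were compared with lower tubule PCs of PCts>W1118, and nuclei of EGT>Yki with those of EGT>w1118. In PCts>Pvr Activation, 402 of 6026 genes (6.67%) were past the fold higher and 417 (6.92%) lower. In EGT>Yki, 217 of 6694 genes (3.24%) were higher and 211 (3.15%) lower. Both comparisons were made against different controls, and 138 genes were higher in both, which is 34.3% of those higher in PCts>Pvr Activation and 63.6% of those higher in EGT>Yki. Genes lower in both numbered 164, or 39.3% of those of PCts>Pvr Activation and 77.7% of those of EGT>Yki. Against the control of the other driver, 6.76% of genes were higher and 7.51% lower in PCts>Pvr Activation, and 3.06% higher and 2.79% lower in EGT>Yki. The clusters were built from these same genes, so these numbers describe the cluster and test nothing.

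**Figure D3:**
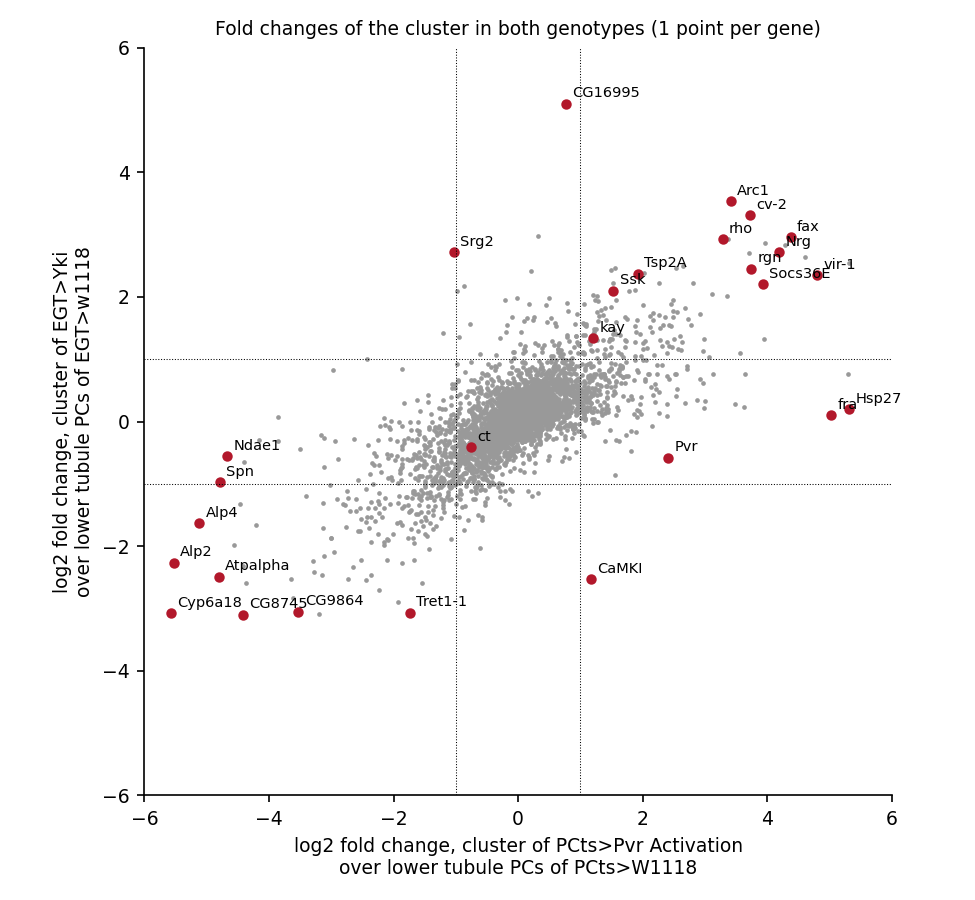
Log2 fold changes of 5748 genes compared in both genotypes, 1 point per gene. The x axis is the cluster of PCts>Pvr Activation over lower tubule PCs of PCts>W1118, the y axis the cluster of EGT>Yki over lower tubule PCs of EGT>w1118, and dotted lines mark the fold. Nrg lies at 4.19 and 2.73 and Atpalpha at -4.81 and -2.49, whereas fra lies at 5.02 and 0.10 and CG16995 at 0.76 and 5.10.

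The highest genes of the cluster of PCts>Pvr Activation were taken among those past the fold against lower tubule PCs of both controls. Ranked against PCts>W1118, they were small heat shock proteins, described below. Then came fra, vir-1, fax, Prosap, Nrg and Swim and the noncoding RNA lncRNA:CR43264. The adhesion molecule neuroglian (Nrg) had 19.3 UMIs per 10,000 in cluster nuclei of PCts>Pvr Activation and 10.2 in those of EGT>Yki, against 0.691 in lower tubule PCs of EGT>w1118 and 0.114 in those of PCts>W1118. In between lay lower tubule PCs of EGT>Yki, with 3.49 UMIs per 10,000 of Nrg. The same order held for fax, a gene known from axon development. Its levels were 20.6 in the cluster of PCts>Pvr Activation and 7.20 in that of EGT>Yki. Lower tubule PCs had 0.367 in EGT>Yki, 0.0541 in EGT>w1118 and 0.0397 in PCts>W1118. The other Pvr-act clusters of PCts>Pvr Activation had 25.8 UMIs per 10,000 of fax. By bins of depth, cluster nuclei of EGT>Yki had 16.3 of fax in the shallowest and 3.31, 4.32 and 4.67 in the deeper bins. Their median over nuclei was 1.21. Prosap, a synaptic scaffold protein of the Shank family, had log2 fold changes of 4.28 in PCts>Pvr Activation and 2.83 in EGT>Yki, and the secreted protein Swim had 3.97 and 2.86.

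The netrin receptor frazzled (fra) behaved otherwise. It had 37.2 UMIs per 10,000 in cluster nuclei of PCts>Pvr Activation and 0.150 in those of EGT>Yki, against 0.0911 in lower tubule PCs of EGT>Yki, 0.0705 in those of EGT>w1118 and 0.176 in those of PCts>W1118. It was also at 15.3 UMIs per 10,000 in the other Pvr-act clusters and at 34.0 in tracheal nuclei of PCts>Pvr Activation, whereas tracheal nuclei of EGT>Yki and EGT>w1118 had none. High fra was thus shared by other nuclei of the library. The converse case was CG16995, with 34.0 UMIs per 10,000 in cluster nuclei of EGT>Yki and 31.1 in lower tubule PCs of EGT>Yki, against 0.762 in cluster nuclei of PCts>Pvr Activation, 0.0183 in lower tubule PCs of EGT>w1118 and 0.0409 in those of PCts>W1118. Tracheal nuclei of EGT>Yki had 0.864 UMIs per 10,000 of CG16995.

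Of 15 genes of the Pvr pathway, 4 were past the fold higher in the cluster of PCts>Pvr Activation, Pvr, Pvf1, Pvf2 and Pvf3, and 1 lower, the ERK gene rolled (rl). Pvf2 had 4.92 UMIs per 10,000 in cluster nuclei of PCts>Pvr Activation, against 0.473 in lower tubule PCs of PCts>W1118, and 3.86 in cluster nuclei of EGT>Yki, against 0.327 in lower tubule PCs of EGT>w1118 (log2 fold changes 2.01 and 1.87). It was the only member past the fold in EGT>Yki. Over all genes compared, 6.67% were higher and 6.92% lower in PCts>Pvr Activation, and 3.24% and 3.15% in EGT>Yki. In EGT>Yki, lower tubule PCs had 0.833 UMIs per 10,000 of Pvf2, and tracheal nuclei had 0 UMIs in EGT>Yki and a level of 4.53 in PCts>Pvr Activation. For rl the levels were 6.92 in the cluster of PCts>Pvr Activation, against 20.2 in lower tubule PCs of PCts>W1118, and 17.4 in the cluster of EGT>Yki, against 22.1 in lower tubule PCs of EGT>w1118.

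The AP-1 factors and misshapen (msn), an upstream kinase of the JNK pathway, were past the fold higher in PCts>Pvr Activation, 3 of 10 genes of the JNK list, with none lower. Of these, kay and msn were also past the fold in EGT>Yki. Over all genes compared, 6.67% were higher in PCts>Pvr Activation and 3.24% in EGT>Yki. The other Pvr-act clusters of PCts>Pvr Activation had 14.2 UMIs per 10,000 of kay and 1.45 of Jra. Levels of kay were 14.4 UMIs per 10,000 in the cluster of PCts>Pvr Activation, against 5.70 in lower tubule PCs of PCts>W1118, and 19.2 in the cluster of EGT>Yki, against 11.0 in lower tubule PCs of EGT>Yki and 6.97 in those of EGT>w1118. Jra had 2.02 UMIs per 10,000 in the cluster of PCts>Pvr Activation, against 0.203 in PCts>W1118, and 1.10 in the cluster of EGT>Yki, against 0.237 in EGT>w1118. The JNK phosphatase puckered (puc), a common readout of JNK activity, had log2 fold changes of 0.29 in PCts>Pvr Activation and 0.22 in EGT>Yki, with 18.2 and 18.9 UMIs per 10,000 in the cluster against 14.7 and 16.1 in the controls.

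Feedback inhibitors of ERK signalling separated both genotypes. Sprouty (sty) had 6.23 UMIs per 10,000 in the cluster of PCts>Pvr Activation, against 0.584 in PCts>W1118, and 0.829 in the cluster of EGT>Yki, against 0.479 in EGT>w1118. The EGF receptor inhibitor argos (aos) had 5.64 UMIs per 10,000 in the cluster of PCts>Pvr Activation, against 0.263 in PCts>W1118, and 0.489 in the cluster of EGT>Yki, against 0.224 in EGT>w1118. Only kek1, another EGF receptor inhibitor, was past the fold in both (2.43 and 1.56). With 3 of 6 members higher in PCts>Pvr Activation and 1 of 6 in EGT>Yki, the list had medians of 1.58 and 0.30, against 0.03 and 0.06 over all genes compared. The shares higher over all genes compared were 6.67% in PCts>Pvr Activation and 3.24% in EGT>Yki.

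Of 6 compared JAK-STAT genes, 4 were past the fold higher in PCts>Pvr Activation and 2 in EGT>Yki. The shares over all genes compared were 6.67% and 3.24%. The feedback inhibitor and target Socs36E had 36.8 UMIs per 10,000 in cluster nuclei of PCts>Pvr Activation and 11.6 in those of EGT>Yki, against 4.0 in lower tubule PCs of EGT>Yki, 1.73 in those of EGT>w1118 and 1.49 in those of PCts>W1118. Tracheal nuclei had 14.8 UMIs per 10,000 of Socs36E in PCts>Pvr Activation and 2.67 in EGT>Yki. The other Pvr-act clusters of PCts>Pvr Activation had 23.2. The cytokine genes were low in level. The ligand upd2 had 1866 UMIs in the 1681 cluster nuclei of PCts>Pvr Activation and 134 in the 170 of EGT>Yki, against 0 in lower tubule PCs of both controls, which is at least 122-fold higher in PCts>Pvr Activation and at least 78.4-fold higher in EGT>Yki against a floor of 3 counts over the control group. The ligand upd3 had 1.29 UMIs per 10,000 in the cluster of PCts>Pvr Activation, against 0.0168 in PCts>W1118, and 1.22 in the cluster of EGT>Yki, against 0.00431 in EGT>w1118.

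**Figure D4:**
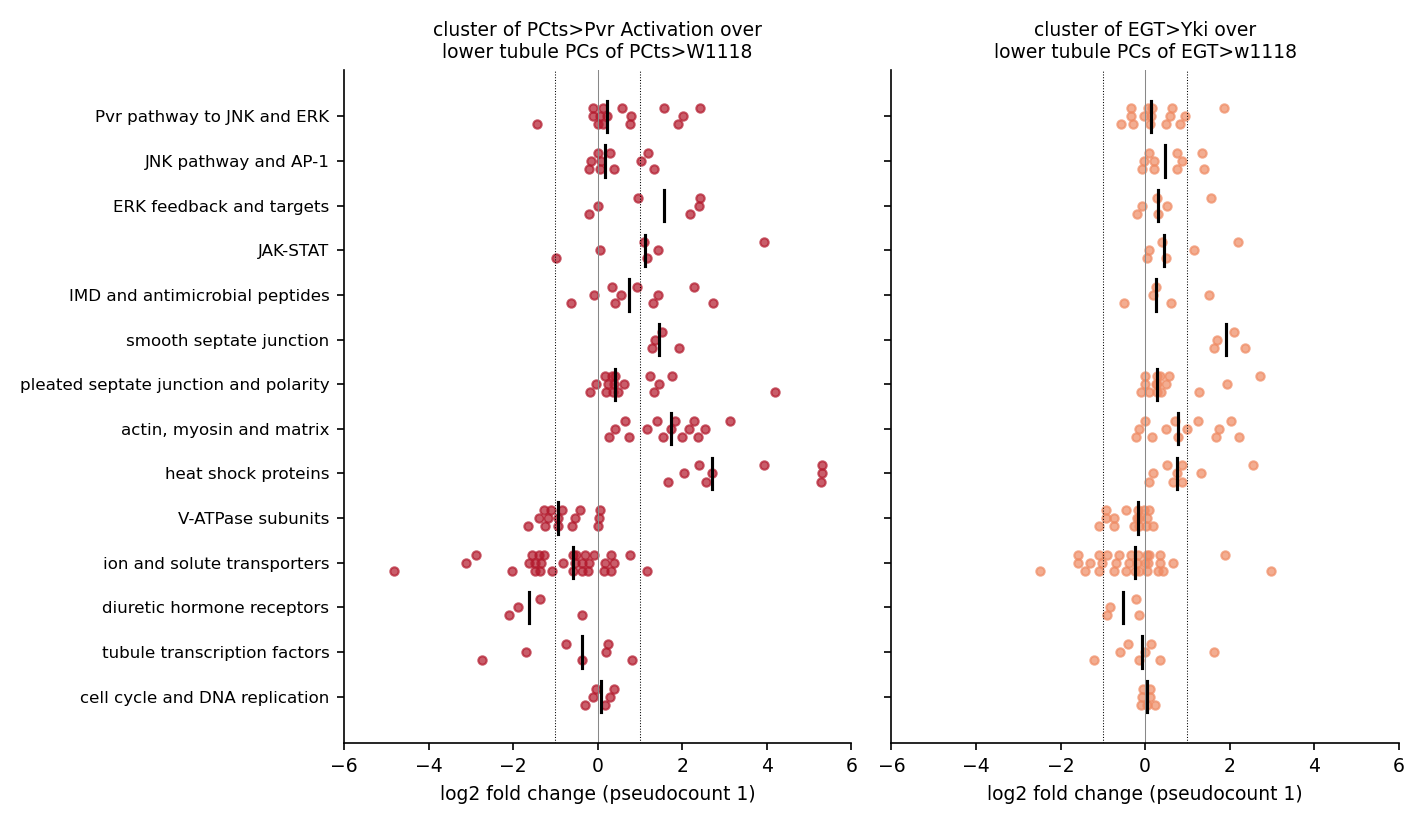
Log2 fold changes (pseudocount 1) of the compared members of 14 gene lists in the cluster of PCts>Pvr Activation over lower tubule PCs of PCts>W1118 (left) and in the cluster of EGT>Yki over lower tubule PCs of EGT>w1118 (right). Each point is a gene, black bars are list medians, and dotted lines mark the fold. Heat shock proteins have a median of 2.72 on the left and 0.76 on the right, and smooth septate junction genes 1.44 and 1.91.

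The 4 genes of the smooth septate junction, the paracellular seal of insect gut and MT epithelia, were past the fold higher in both genotypes. Over all genes compared, 6.67% were higher in PCts>Pvr Activation and 3.24% in EGT>Yki. Snakeskin (Ssk) had 11.0 UMIs per 10,000 in the cluster of PCts>Pvr Activation, against 3.18 in lower tubule PCs of PCts>W1118, and 18.2 in the cluster of EGT>Yki, against 6.74 in lower tubule PCs of EGT>Yki and 3.46 in those of EGT>w1118. In PCts>Pvr Activation and in EGT>Yki, log2 fold changes came to 1.53 and 2.10 for Ssk, 1.36 and 1.71 for mesh, 1.93 and 2.37 for Tsp2A and 1.28 and 1.62 for hoka. Within EGT>Yki, all 4 were also past the fold against lower tubule PCs of the same library (93 of 6553 genes, 1.42%, were). Ssk was at 17.3 UMIs per 10,000 in tracheal nuclei of EGT>Yki and Tsp2A at 7.87, close to the cluster, while mesh was at 2.40 in tracheal nuclei, against 7.93 in cluster nuclei. In raw UMIs per nucleus Ssk had 32.0 in cluster nuclei of EGT>Yki and 2.70 in tracheal nuclei, which are much shallower. The part of free RNA in these values was not tested. Ssk, mesh and Tsp2A were at 17.0, 7.57 and 11.5 UMIs per 10,000 in the other Pvr-act clusters of PCts>Pvr Activation. The Pvr-act lower tubule cluster of that library had 11.0, 5.10 and 7.11, so high levels of these 3 genes were not particular to it.

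In the actin, myosin and matrix list, 11 of 15 compared members were past the fold higher in PCts>Pvr Activation and 5 of 13 in EGT>Yki. None was lower, and 6.67% and 3.24% of all genes compared were higher. Act5C had 25.4 UMIs per 10,000 in the cluster of PCts>Pvr Activation, against 4.49 in PCts>W1118, and 21.7 in the cluster of EGT>Yki, against 15.3 in lower tubule PCs of EGT>Yki and 3.84 in those of EGT>w1118. Tracheal nuclei had 12.2 to 18.9 UMIs per 10,000 of Act5C. The second cytoplasmic actin, Act42A, had log2 fold changes of 3.12 and 2.04. The integrin genes differed between genotypes. The β-integrin myospheroid (mys) had 19.9 UMIs per 10,000 in the cluster of PCts>Pvr Activation, against 2.59 in PCts>W1118, and 7.21 in the cluster of EGT>Yki, against 3.82 in EGT>w1118. The α-integrin inflated (if) had 15.4 in the cluster of PCts>Pvr Activation, against 3.64 in PCts>W1118, and 2.70 in the cluster of EGT>Yki, against 3.10 in EGT>w1118.

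**Figure D5:**
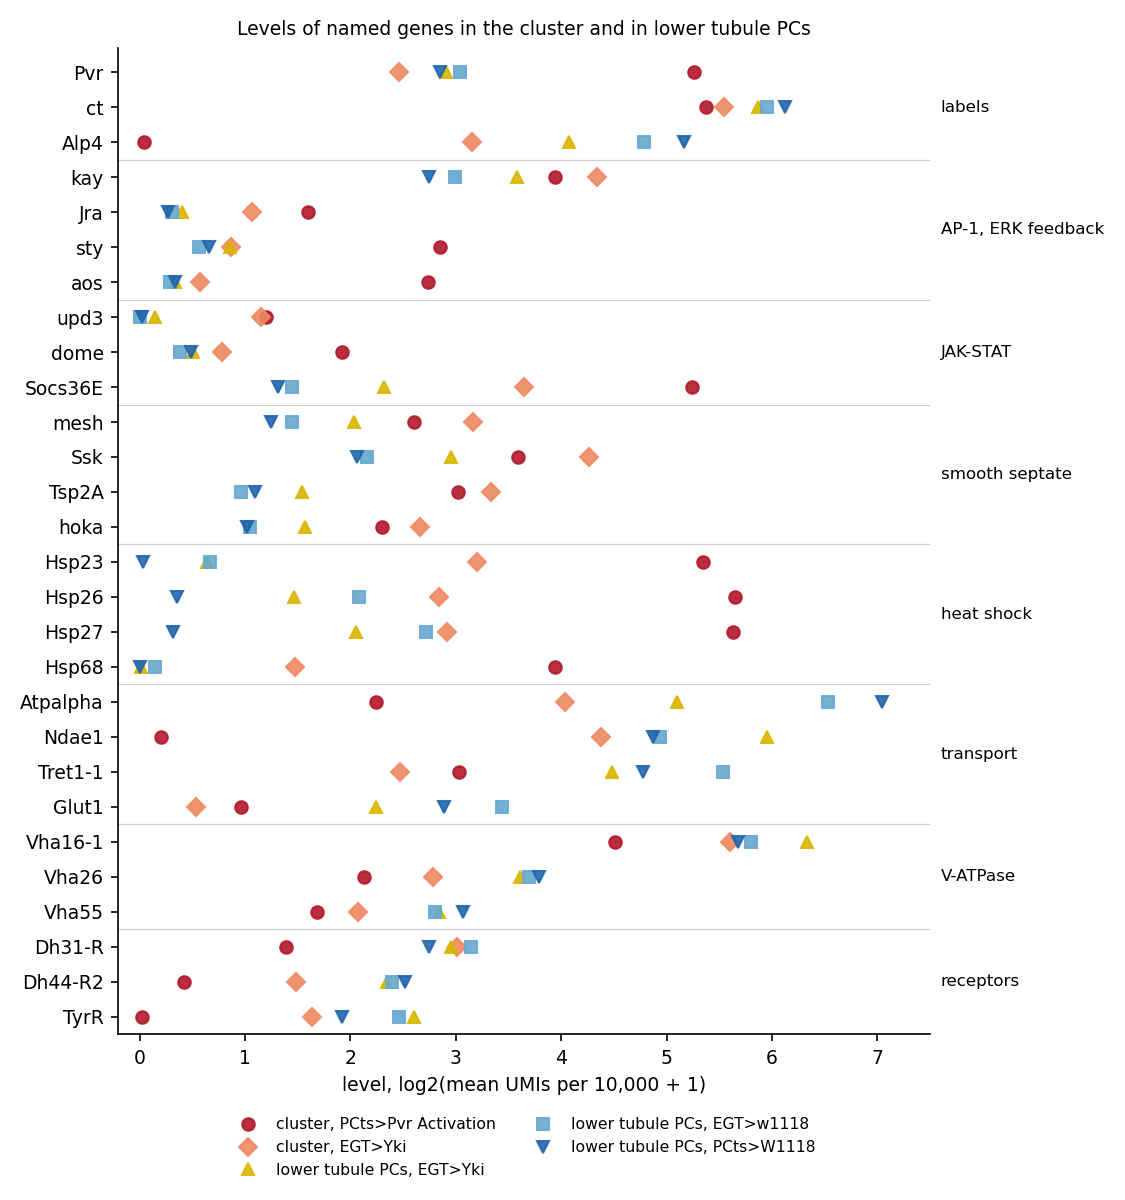
Levels of named genes as log2(mean UMIs per 10,000 + 1), with genes down the page in groups of function and 1 symbol per group of nuclei. Red circles (cluster, PCts>Pvr Activation) lie right of all other groups for heat shock genes and left of them for V-ATPase genes, receptors, Atpalpha and Ndae1, and orange diamonds (cluster, EGT>Yki) lie farthest right for the 4 smooth septate junction genes.

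Of 31 compared ion and solute transporter genes, 13 were past the fold lower and 1 higher in PCts>Pvr Activation. In EGT>Yki 8 were lower and 2 higher. Over all genes compared, 6.92% were lower and 6.67% higher in PCts>Pvr Activation, and 3.15% and 3.24% in EGT>Yki. The α subunit of the Na+,K+-ATPase, Atpalpha, had 3.72 UMIs per 10,000 in the cluster of PCts>Pvr Activation, against 131 in lower tubule PCs of PCts>W1118, and 15.4 in the cluster of EGT>Yki, against 33.3 in lower tubule PCs of EGT>Yki and 91.3 in those of EGT>w1118. Tracheal nuclei had 8.16 UMIs per 10,000 of Atpalpha in PCts>Pvr Activation, above the cluster nuclei of that library, and 7.77 in EGT>Yki. Low Atpalpha was shared by the other Pvr-act clusters of PCts>Pvr Activation, with 4.27.

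The Na+-driven anion exchanger Ndae1, a lower tubule gene of the controls, set both genotypes apart. Its levels were 0.153 in the cluster of PCts>Pvr Activation, against 28.3 in lower tubule PCs of PCts>W1118, and 19.8 in the cluster of EGT>Yki, against 61.0 in lower tubule PCs of EGT>Yki and 29.7 in those of EGT>w1118. Tracheal nuclei of EGT>Yki had 7.08 UMIs per 10,000 of Ndae1, and the other Pvr-act clusters of PCts>Pvr Activation had 0.137. The sugar carriers Tret1-1, a trehalose transporter, and Glut1 were low in both genotypes. Tret1-1 had 7.18 in the cluster of PCts>Pvr Activation, against 26.3 in PCts>W1118, and 4.54 in the cluster of EGT>Yki, against 21.4 in lower tubule PCs of EGT>Yki and 45.4 in those of EGT>w1118. The 2 higher transporter genes of EGT>Yki were the chloride channel SecCl, also among the stellate cell markers, and CG4928. SecCl had 5.31 UMIs per 10,000 in the cluster of EGT>Yki, against 0.711 in EGT>w1118, and 5.73 in tracheal nuclei of EGT>Yki, which in raw UMIs per nucleus had 1.17, against 9.08 in the cluster. CG4928 had 46.0 in the cluster and 36.4 in lower tubule PCs of EGT>Yki, against 4.97 in lower tubule PCs of EGT>w1118, with 18.3 in tracheal nuclei of EGT>Yki.

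Of the V-ATPase subunits, 6 of 15 compared were past the fold lower in PCts>Pvr Activation and 1 of 16 in EGT>Yki, with medians of -0.93 and -0.18. Vha26, a subunit of the peripheral stalk, had 3.39 UMIs per 10,000 in the cluster of PCts>Pvr Activation, against 12.8 in PCts>W1118, and 5.87 in the cluster of EGT>Yki, against 11.9 in EGT>w1118. The receptors for diuretic signals had 3 of 4 compared members past the fold lower in PCts>Pvr Activation and 0 of 4 in EGT>Yki. For both lists, the shares lower over all genes compared were 6.92% in PCts>Pvr Activation and 3.15% in EGT>Yki. The receptor Dh31-R of a calcitonin-like diuretic hormone had 1.63 UMIs per 10,000 in the cluster of PCts>Pvr Activation, against 5.72 in PCts>W1118, and 7.07 in the cluster of EGT>Yki, against 7.87 in EGT>w1118. The tyramine receptor TyrR had 0.0153 in the cluster of PCts>Pvr Activation, against 2.78 in PCts>W1118, and 2.10 in the cluster of EGT>Yki, against 4.49 in EGT>w1118.

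Of 7 compared tubule transcription factors, 2 were past the fold lower in PCts>Pvr Activation, cad and Hnf4, and none higher. Of 8 in EGT>Yki, 1 was lower, cad, and 1 higher, dve. Over all genes compared, 6.92% were lower in PCts>Pvr Activation, and 3.15% were lower and 3.24% higher in EGT>Yki. The caudal homeobox gene cad had 0.691 UMIs per 10,000 in the cluster of PCts>Pvr Activation, against 10.2 in PCts>W1118, and 5.14 in the cluster of EGT>Yki, against 13.3 in EGT>w1118. The nuclear receptor Hnf4 had 1.61 in the cluster of PCts>Pvr Activation, against 7.39 in PCts>W1118, and 4.56 in the cluster of EGT>Yki, against 7.35 in EGT>w1118 (log2 fold changes -1.69 and -0.59). In the uric acid pathway, the urate oxidase Uro was lower in PCts>Pvr Activation (log2 fold change -1.51) and at -0.25 in EGT>Yki, CG30016 was lower in both (-2.24 and -1.27), and the aldehyde oxidase AOX1 was higher in both (1.33 and 1.79). Among genes past the fold against both controls, lowest in PCts>Pvr Activation were Cyp6a18 (-5.57), a cytochrome P450, and the alkaline phosphatases Alp2 (-5.52) and Alp4 (-5.12). Next were Atpalpha, the spinophilin gene Spn (-4.79), Ndae1, CG7084, CG33258, CG8745 and CG15279. In all 1681 cluster nuclei, 7 UMIs of Cyp6a18 were counted, against a level of 46.7 UMIs per 10,000 in lower tubule PCs of PCts>W1118.

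Among genes past the fold against both controls, Hsp27, Hsp23 and Hsp26 ranked highest in the cluster of PCts>Pvr Activation against PCts>W1118. Against lower tubule PCs of PCts>W1118 they had log2 fold changes of 5.31, 5.31 and 5.29. Against those of EGT>w1118 they had 2.92, 4.68 and 3.57, below fra (5.16). Against PCts>W1118, all 9 compared heat shock protein genes were past the fold higher in PCts>Pvr Activation, with a median log2 fold change of 2.72. Against EGT>w1118, 2 of 9 were higher in EGT>Yki, with a median of 0.76. Over all genes compared, 6.67% and 3.24% were higher. The small chaperone Hsp27 had 48.6 UMIs per 10,000 in the cluster of PCts>Pvr Activation, against 0.246 in lower tubule PCs of PCts>W1118, and 6.53 in the cluster of EGT>Yki, against 3.15 in lower tubule PCs of EGT>Yki and 5.56 in those of EGT>w1118. Controls themselves were thus unequal, and 4 of 8 heat shock genes were past the fold higher in lower tubule PCs of EGT>w1118 than in those of PCts>W1118. With lower tubule PCs of PCts>W1118 as control, 8 members were past the fold in EGT>Yki. For Hsp27 in EGT>Yki the sign itself depended on the summary, at 0.20 from means over nuclei and -0.88 (-0.99 to -0.78) from pooled counts.

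Spread over nuclei was wide for these genes. In cluster nuclei of PCts>Pvr Activation, Hsp27 had a lower quartile of 3.8, a median of 13.0, an upper quartile of 42.3 and a 90th percentile of 132 UMIs per 10,000, with a maximum of 1112.5. Pvr was less dispersed, with quartiles of 11.0 and 46.0 and a median of 24.4. Hsp27 was higher in shallow nuclei. With the cluster nuclei of PCts>Pvr Activation divided by depth into 4 equal bins, from shallow to deep, its mean was 69.6, 49.3, 46.2 and 29.2, whereas Pvr stayed between 35 and 38.3 and ct took the opposite course, at 21.7, 38.1, 47.6 and 53.9. In EGT>Yki, Hsp23 was at 25.1 UMIs per 10,000 in the shallowest bin and at 2.32, 0.481 and 4.70 in the others. Over nuclei with 2000 to 8000 UMIs, Hsp27 was at 51.7 in the cluster of PCts>Pvr Activation, against 11.2 in the other Pvr-act clusters of that library and 0.533 in lower tubule PCs of PCts>W1118.

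Heat shock genes also set the cluster apart from its neighbours in the same library. Cluster nuclei of PCts>Pvr Activation were compared with the other clusters named after Pvr-act in that library, which have the same free RNA, and 50 of 5118 genes (0.977%) were past the fold higher and 32 (0.625%) lower. Of the 9 heat shock genes compared, 6 were higher, with a median of 1.46 against 0.02 over all genes. Hsp68 had 14.4 UMIs per 10,000 in the cluster and 2.30 in the other Pvr-act clusters, Hsp27 had 48.6 and 10.6, Hsp26 had 49.2 and 11.9 and Hsp23 had 39.6 and 8.75. By cluster, Hsp27 was at 14.7 in renal stem cells (Pvr-act), 9.87 in lower segment PCs (Pvr-act), 4.94 in lower segment PCs 2 (Pvr-act) and 4.77 in renal stem cells 2 (Pvr-act). After thinning to 1000 UMIs, 64.1% of cluster nuclei and 37.5% of nuclei of the other Pvr-act clusters had a UMI of Hsp27 (87.9% and 48.8% without thinning). Tracheal nuclei of PCts>Pvr Activation had a level of 7.38 UMIs per 10,000 of Hsp27.

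The regulator of these genes, heat shock factor (Hsf), had 6.16 UMIs per 10,000 in the cluster of PCts>Pvr Activation, against 1.06 in the other Pvr-act clusters, and 1.13 in the cluster of EGT>Yki. The pro-apoptotic gene reaper (rpr) had 7.0 UMIs per 10,000 in the cluster, against 1.56 in the other Pvr-act clusters, and 0.253 in the cluster of EGT>Yki, with 1 UMI in all lower tubule PCs of PCts>W1118. The damage-response gene Gadd45 had 7.90 in the cluster of PCts>Pvr Activation, against 2.41 in the other Pvr-act clusters, and 5.86 in the cluster of EGT>Yki, against 1.20 in lower tubule PCs of EGT>w1118. The caspase inhibitor Diap1 was high in the cluster too, with 18.2 UMIs per 10,000 in PCts>Pvr Activation, against 2.09 in lower tubule PCs of PCts>W1118. The heat-inducible noncoding RNA lncRNA:Hsromega had 302 UMIs per 10,000 in the cluster, against 128 in the other Pvr-act clusters, but tracheal nuclei of PCts>Pvr Activation had 246 and, from pooled counts, 249, against 215 in the cluster.

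Genes lower in the cluster than in the other Pvr-act clusters were led by the mucin-related gene Mur18B, with 0.344 UMIs per 10,000 in the cluster and 5.97 in the others, and by mat, with 12.1 and 62.1. Papilin (Ppn), an extracellular matrix protein, had 1.30 and 8.85, the collagen Col4a1 had 0.577 and 4.58, and hemolectin (Hml), a hemocyte gene, had 0.525 and 4.31. The 5 hemocyte markers, all with UMIs in both groups, summed to 1.51 UMIs per 10,000 in the cluster and 10.5 in the other Pvr-act clusters. The renal stem cell markers N and Sox100B summed to 0.949 and 3.68. The markers esg and Dl of the same list were not matched to an identifier and are left out of these sums. The part of other cell types in these differences was not tested.

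Cluster nuclei of both genotypes were then set side by side. Of 6730 genes, 209 (3.11%) were past the fold higher in EGT>Yki and 172 (2.56%) lower. Highest in EGT>Yki were CG16995 (log2 fold change 4.31), Ndae1 (4.17), CG13315, CG14292, Mur18B (3.79), Spn (3.58), CG33258, CG3168, kumpel and Alp4 (3.11). Of 31 transporter genes, 11 were higher in EGT>Yki and 1 lower, and the receptors Dh31-R, Dh44-R2 and TyrR were higher by 1.62, 1.06 and 1.61. Lowest in EGT>Yki were fra (-5.06), Cpr67Fb, a cuticle protein gene, lncRNA:CR40469, FBgn0263118, the metalloprotease inhibitor Timp (-3.18), Phk-3, CG42795, the zinc finger factor ovo (-2.93), CG44325 and the kinase CaMKI (-2.82). Timp had 0.245 UMIs per 10,000 in the cluster of EGT>Yki and 10.3 in that of PCts>Pvr Activation. No smooth septate junction gene was past the fold between them. The libraries differ in driver, transgene and depth, and these cannot be told apart.

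In EGT>Yki both the cluster and ordinary lower tubule PCs were present in 1 library, so that they can be compared under the same free RNA. Of 6553 genes, 93 (1.42%) were past the fold higher in the cluster and 70 (1.07%) lower. Highest were crossveinless 2 (cv-2), a BMP-binding protein, with 27.3 UMIs per 10,000 in the cluster and 1.90 in lower tubule PCs, and rhomboid (rho), a protease that releases EGF receptor ligands, with 6.64 and 0.104. Next came fax (2.58), Hsp23 (2.57), Arc1 (2.33), Pi3K21B, a regulatory subunit of PI3 kinase (2.22), the actin-binding protein ciboulot, cib (2.14), vir-1 (2.10), bero and calmodulin, Cam (1.87). These genes were chosen after their values were seen. Hsp23 had a median of 0 over the cluster nuclei of EGT>Yki, and its mean was highest in the shallowest bin of depth (25.1). The gene cv-2 was also high in PCts>Pvr Activation, where the cluster had 30.9 UMIs per 10,000 and lower tubule PCs of PCts>W1118 had 1.42. Lowest in the cluster within EGT>Yki were CG9864 (-2.16), CG33181, CG7084, Tret1-1 (-2.01), Cyp6a18 (-1.98) and the Na+/H+ antiporter Nha1 (-1.95).

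Lower tubule PCs of EGT>Yki themselves differed less from those of EGT>w1118, with 54 of 5628 genes (0.959%) past the fold higher and 64 (1.14%) lower. Over the 217 genes higher in the cluster of EGT>Yki than in lower tubule PCs of EGT>w1118, 43 were also past the fold in the lower tubule PCs of EGT>Yki, whose median log2 fold change over the 217 was 0.59. Over the 211 lower genes, 61 were also past the fold, with a median of -0.75. The values of both groups of EGT>Yki share the control EGT>w1118 and are given side by side.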

How the data were processed

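UMIs were counted by the authors with Cell Ranger 7.0.0. All libraries were then normalized and clustered jointly in Seurat after Harmony integration. The authors deposited natural log values, ln(1 + x), where x is a gene's UMIs scaled to 10,000 per nucleus. The table covers 16495 genes in 21371 nuclei, with a library and a cell type name for each nucleus. The submitters' processing notes name BDGP6. Filters on nuclei and doublet removal are not given in the sources used here, and no doublet call was made. The deposited table holds more nuclei of EGT>Yki and EGT>w1118 than the study's text states. In 100% of nuclei all values were whole multiples of the smallest within 1e-06, so UMI counts were recovered. Of the identifiers, 16447 matched a symbol in a reference annotation and 48 did not.

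Group means plus a pseudocount of 1 were compared by their log2 ratio, without tests, since there was 1 library per genotype. Intervals are exact (binomial, conditional binomial) at 95%. For thinning, 1000 UMIs were drawn per nucleus, which left out 34 cluster nuclei of PCts>Pvr Activation, 1995 of the other Pvr-act clusters and 3 cluster nuclei of EGT>Yki. The code was tested on simulated data. Named genes were Pvr, ct, list members, the 10 most abundant genes and the 10 highest and lowest genes of 3 comparisons. The 10 highest and lowest genes of the comparisons of EGT>Yki with EGT>w1118 and within EGT>Yki were taken as well. Against a control, the highest and lowest genes also had to be past the fold against the other control. Genes of the comparison within EGT>Yki, Hsf, rpr and Gadd45 were named after their values were seen. Members and lists were chosen with earlier results of these data known. Alternatives were a pseudocount of 0.1, pooled counts, no filter on low values, leaving out shallow or deep nuclei, a depth window and the other control. Python 3.11.15, numpy 2.4.6, scipy 1.17.1 and pandas 2.3.3 were used.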

Additional observations from a re-analysis of the deposited data

Results flagged for a closer look

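Of the genes compared in both genotypes, 4 were past the fold in opposite directions in the cluster of PCts>Pvr Activation over lower tubule PCs of PCts>W1118 and in the cluster of EGT>Yki over lower tubule PCs of EGT>w1118. The difference between genotypes was not tested, since there is 1 library of each.

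Srg2 had a log2 fold change of -1.04 in PCts>Pvr Activation, with 0.607 UMIs per 10,000 in the cluster against 2.30 in PCts>W1118, and of 2.72 in EGT>Yki, with 7.83 in the cluster against 0.338 in EGT>w1118. CG13323 had -2.43 in PCts>Pvr Activation (0.213 against 5.53 UMIs per 10,000) and 1.01 in EGT>Yki (2.79 against 0.879). CG17224 had -1.20 in PCts>Pvr Activation (0.855 against 3.27) and 1.42 in EGT>Yki (3.24 against 0.580). The calmodulin-dependent kinase CaMKI had 1.17 in PCts>Pvr Activation (8.50 against 3.21) and -2.53 in EGT>Yki (0.350 against 6.79). With the control libraries exchanged, none of the 4 was past the fold in opposite directions. Srg2 then had 0.26 in PCts>Pvr Activation and 1.42 in EGT>Yki, CG13323 had -0.63 and -0.78, CG17224 had 0.23 and -0.01, and CaMKI had 0.29 and -1.64. Lower tubule PCs of EGT>Yki had 3.22 UMIs per 10,000 of Srg2, 1.87 of CG13323, 2.73 of CG17224 and 1.74 of CaMKI.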

How the results depend on the processing

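No paired analysis was possible because each genotype has 1 library. Of 171 values of 32 counts, shares and likeness values under alternatives, 144 stayed close to the value reported (counts within 1.5 times) and 27 did not. Of 1633 values of 251 log2 fold changes of named genes, 1562 were past the fold in the same direction. Of the 1633, 822 moved by more than the counting error of the value reported and 810 by less. All 251 were past the fold to begin with. Those picked as highest or lowest against a control had to be past it against the other control too. Part of this agreement was thus fixed by the choice of genes. CG42807 turned round, at -1.87 against PCts>W1118 and 0.55 against EGT>w1118 in the cluster of PCts>Pvr Activation.

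A pseudocount of 0.1 gave more genes past the fold, since low genes then count for more. It gave 1197 higher and 1052 lower in PCts>Pvr Activation against PCts>W1118, 963 and 568 in EGT>Yki against EGT>w1118, 724 and 559 between the genotypes within the cluster, 565 and 221 within EGT>Yki and 250 and 76 within PCts>Pvr Activation. Transporter genes lower were then 20 in PCts>Pvr Activation and 14 in EGT>Yki, and 17 were higher in EGT>Yki than in PCts>Pvr Activation. Heat shock genes higher in EGT>Yki numbered 1 with pooled counts, 1 without the shallowest 25% of nuclei, 8 with the other control and 8 over nuclei with 2000 to 8000 UMIs. Transporter genes lower in EGT>Yki numbered 4 with the other control. The window of 2000 to 8000 UMIs, chosen after seeing the data, held 31 cluster nuclei of EGT>Yki and gave 340 genes lower against EGT>w1118 (190 of them also lower over all nuclei), 217 higher and 206 lower within EGT>Yki, and 6 transporter genes higher in EGT>Yki than in PCts>Pvr Activation. Genes lower than in the other Pvr-act clusters numbered 92 with pooled counts (16 shared), 15 without the shallowest 25% (14 shared) and 17 in the window (5 shared). Without the shallowest 25% of each library, the cluster was 23.2% of PCts>Pvr Activation and 6.22% of EGT>Yki. The causes were not tested. The cluster of EGT>Yki rests on 170 nuclei.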

Other observations

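Of 10 compared genes of the IMD and antimicrobial list, 4 were past the fold higher in the cluster of PCts>Pvr Activation and 1 of 5 in that of EGT>Yki, where 6.67% and 3.24% of all genes compared were higher. The difference between genotypes was not tested. The antimicrobial peptide gene AttB had 4815 UMIs in cluster nuclei of PCts>Pvr Activation and 1 in those of EGT>Yki, against 0 in lower tubule PCs of both controls, at least 315-fold higher than in PCts>W1118 against a floor of 3 counts over the group. AttB was also at 3.80 UMIs per 10,000 in the other Pvr-act clusters, against 5.66 in the cluster. AttD, another attacin, had 3.92 UMIs per 10,000 in PCts>Pvr Activation and 1.87 in EGT>Yki, against 0.00854 in EGT>w1118 and 0.0198 in PCts>W1118. The IMD inhibitor pirk had a log2 fold change of 1.32 in PCts>Pvr Activation and 0.26 in EGT>Yki.

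The translation inhibitor Thor (4E-BP) had 24.3 UMIs per 10,000 in the cluster of PCts>Pvr Activation, against 5.98 in PCts>W1118, and 8.39 in that of EGT>Yki, against 7.59 in EGT>w1118. The insulin antagonist ImpL2 had 8.16 in PCts>Pvr Activation, against 0.587 in PCts>W1118, and 1.23 in EGT>Yki, against 0.670 in EGT>w1118. Of 82 ribosomal protein genes compared, 2 were past the fold higher in PCts>Pvr Activation, and of 83 in EGT>Yki, 5. Of 63 oxidative phosphorylation genes, 0 were higher and 2 lower in PCts>Pvr Activation (ATPsynC and ATPsynbeta), with a median of -0.45. Of 6 and 7 compared cell cycle genes, none was past the fold in PCts>Pvr Activation or EGT>Yki. Of 40 cytochrome P450 genes compared, 3 were higher and 5 lower in PCts>Pvr Activation, and of 45 in EGT>Yki, 1 and 3. Over all genes compared, 6.67% were higher and 6.92% lower in PCts>Pvr Activation, and 3.24% and 3.15% in EGT>Yki.

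The deposited table also lists transgene features. In cluster nuclei, gal4 had 0 UMIs in PCts>Pvr Activation and 2 in EGT>Yki, and EGFP had 0 in both. The gene CG31272, whose regulatory sequence drives the PC libraries, had 6.82 UMIs per 10,000 in the cluster of PCts>Pvr Activation, against 18.4 in PCts>W1118, and 18.2 in that of EGT>Yki, against 20.6 in EGT>w1118.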
